A study of Mus musculus with 16 samples.

Results

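Liver secretes triglyceride in very low density lipoprotein (VLDL) and shapes high density lipoprotein (HDL) through a small set of abundant proteins, and the genes for 10 of them are described here across diet and liver miR-33 genotype. They are Apoa1, Apoa2, Apoa4, Apoa5, Apob, Apoc1, Apoc2, Apoc3, Apoe and Mttp, taken by name from the 23258 genes of the deposited count table. The rule used names and not values, though earlier results of these data were known when the genes were chosen. All 10 had a row and all 10 passed the filter on low counts, which left 16830 genes tested. High-fat feeding divided them: Apoc2 rose and Apoa1, Apoa2, Apoa5, Apob and Mttp fell in both genotypes, Apoa4 was higher on high-fat diet and passed the test in knockout only, and Apoc1, Apoc3 and Apoe passed in neither genotype. None of the 10 differed between knockout and wild type on either diet beyond the spread between libraries.

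As background, the product of Apob is the structural protein of VLDL, and the transfer protein encoded by Mttp loads lipid onto it in the endoplasmic reticulum as it is made. Apoa1 and Apoa2 encode the main proteins of HDL. The smaller exchangeable apolipoproteins set what happens to a particle in blood: Apoc2 encodes the activator of lipoprotein lipase, Apoa5 encodes a protein that aids that lipase, Apoc3 encodes a protein that slows it, Apoc1 encodes a protein that slows particle uptake, and Apoe encodes the ligand through which remnant particles are taken up. Apoa4 encodes a protein of intestine and liver that travels on chylomicrons and HDL.

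Livers came from mice of the strain C57BL/6, labelled by genotype as Wildtype or miR-33 Liver knockout and by diet as Chow diet or HFD, written here as wild type, knockout, chow and high-fat diet. The groups held 3 wild-type and 4 knockout libraries on chow, and 4 wild-type and 5 knockout libraries on high-fat diet. RNA depleted of ribosomal RNA was sequenced from whole frozen liver. The name of the deposited table includes Alb-Cre, a Cre recombinase driven by the albumin promoter, which is active in hepatocytes, and whether wild-type mice carried it is not given in the labels. The labels give no age, sex, feeding time or batch, and do not state that libraries came from separate animals, so p-values measure the spread between these libraries, which may be technical. Numbers in the sample titles form a separate series on each diet, so that series and diet cannot be told apart.

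Library totals ran from 15888436 to 29469645 estimated counts. Between 0.637% and 14.6% of counts fell on CT010467.1, a gene for ribosomal RNA. Levels are given as CPM, counts scaled to library totals after TMM adjustment, whose factors were 0.855 to 0.966 on chow and 1.02 to 1.18 on high-fat diet. High-fat knockout 1 stood apart: on the first principal component of log2 CPM it lay at 2.42, between the other high-fat libraries (21.5 to 31.6) and the chow libraries (-35.6 to -26.9), and on the second at -27.4, against -4.62 to 9.47 in all others. Results that rest on it are given with and without it. On the third component chow wild type 3 lay at -18.3, against -10.7 to 13.3 in all others. In that chow library 2.54% of counts fell on CT010467.1, against 11.3% to 14.6% in the other chow libraries. No row of the table holds miR-33 itself, so no value here checks the deletion.

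miR-33 lies within the Srebf2 gene and is known to repress genes of cholesterol export. Its main mature strand, from RefSeq (GRCm38.p6, chr15:82198127-82198147, plus strand), is shown because the 10 genes were searched for its seed, bases 2 to 8, in capitals.
mmu-miR-33-5p: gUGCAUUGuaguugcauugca
In GENCODE M21 transcripts, the longest 3′ UTR of each of the 10 genes, 64 bases in Apoa1 to 1201 bases in Mttp, held no complement of those 7 bases. Of 20920 protein-coding genes with such a UTR, 1495 (7.15%) held at least 1. Transcripts of Apob held up to 2 complements outside the 3′ UTR. Absence of these letters says nothing of other modes of binding.

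The 10 genes together took 3.23% ± 0.105 (SD, n = 3) of all counts in wild type on chow, 3.15% ± 0.0499 (n = 4) in knockout on chow, 3.38% ± 0.103 (n = 4) in high-fat wild type and 3.28% ± 0.443 (n = 5) in high-fat knockout. High-fat knockout 1 was the lowest at 2.55%, and the other 15 libraries lay between 3.08% and 3.64%. With CT010467.1 left out of the totals, these 15 libraries lay between 3.42% and 3.73%, and high-fat knockout 1 at 2.91%.

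Per kilobase of merged exons, the highest levels in wild type on chow were those of Apoa1 (5851 ± 611 CPM per kilobase), Apoa2 (5645 ± 449) and Apoe (4688 ± 292). Apoa1 and Apoa2 did not differ there beyond their spread. Apoc1 followed at 1597 ± 133 CPM per kilobase. Apoc3 (851 ± 58.6), Apoa5 (722 ± 105), Apob (676 ± 108) and Apoa4 (614 ± 110.3) came next, and the last 3 of these levels per kilobase lay within each other's spread. The lowest levels per kilobase were those of Apoc2 (178 ± 26.6) and Mttp (79.2 ± 8.34), whose product stays in the cell. On high-fat diet Apoe led in wild type with 4788 ± 439 CPM per kilobase, within the spread of Apoa2 at 4228 ± 542. Apoa4 moved from the 8th place on chow to the 4th in wild type (1627 ± 354 CPM per kilobase) and the 5th in knockout (1401 ± 649.9), level with Apoc1 within the spread. Without high-fat knockout 1 it was the 4th in knockout as well, at 1653 ± 374 CPM per kilobase against 1592 ± 158 for Apoc1. With the length of the longest transcript in place of merged exons, Apoe led on chow as well, at 7119 CPM per kilobase in wild type against 6987 for Apoa1.

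**Figure D1:**
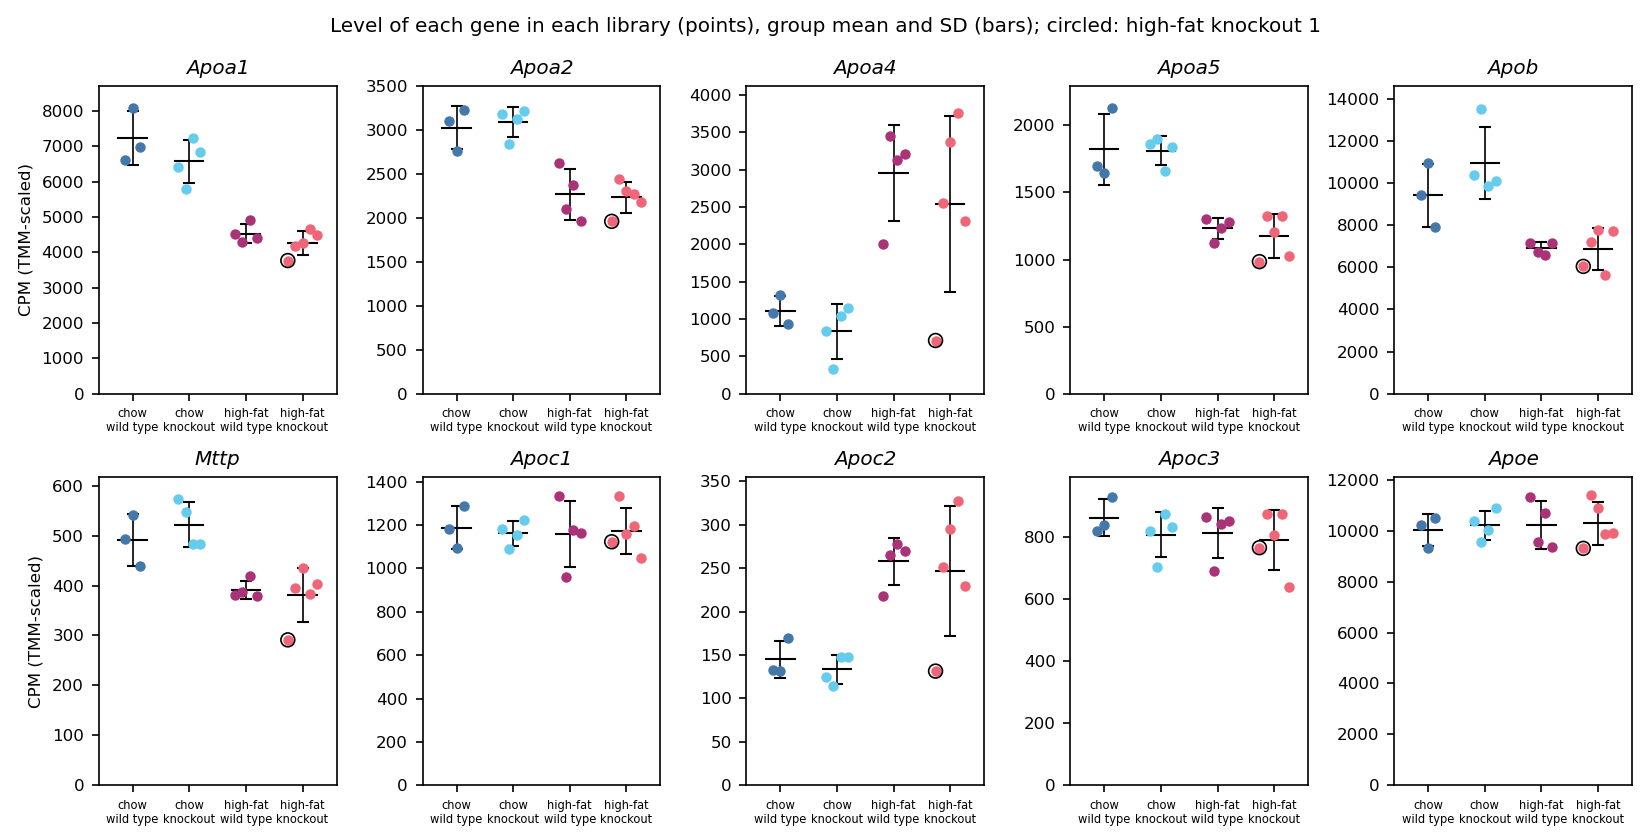
Level of each of the 10 genes in each of the 16 libraries, in TMM-scaled CPM on a linear axis from 0, by diet and genotype, with points for libraries and bars for the group mean ± SD (n = 3, 4, 4 and 5 from left to right). Apoa4 and Apoc2 stand higher on high-fat diet except in the circled library, high-fat knockout 1 (713 and 131 CPM), while Apoa1, Apoa2, Apoa5, Apob and Mttp stand lower in every high-fat library than in every chow library of the same genotype.

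In wild type, 6 of the 10 genes passed the test between diets at an edgeR adjusted p under 0.05, 1 higher and 5 lower on high-fat diet. Over all genes tested, 29.4% passed, 15.2% higher and 14.2% lower. In knockout, 7 of the 10 passed, 2 higher and 5 lower, where 33.6% of all genes passed, 17.4% higher and 16.2% lower. The median log2 fold change of the 10 genes was -0.21 in wild type and -0.24 in knockout, beside -0.02 and -0.01 over all genes. The groups did not overlap for 7 of the 10 genes in wild type, 2 of them higher, against 36% of all genes, and for 5 of the 10 in knockout, against 26.5%. Leaving out high-fat knockout 1, the count that passed in knockout was again 7. The count in wild type was 3 without chow wild type 2, when Apob, Apoc2 and Mttp no longer passed.

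**Figure D2:**
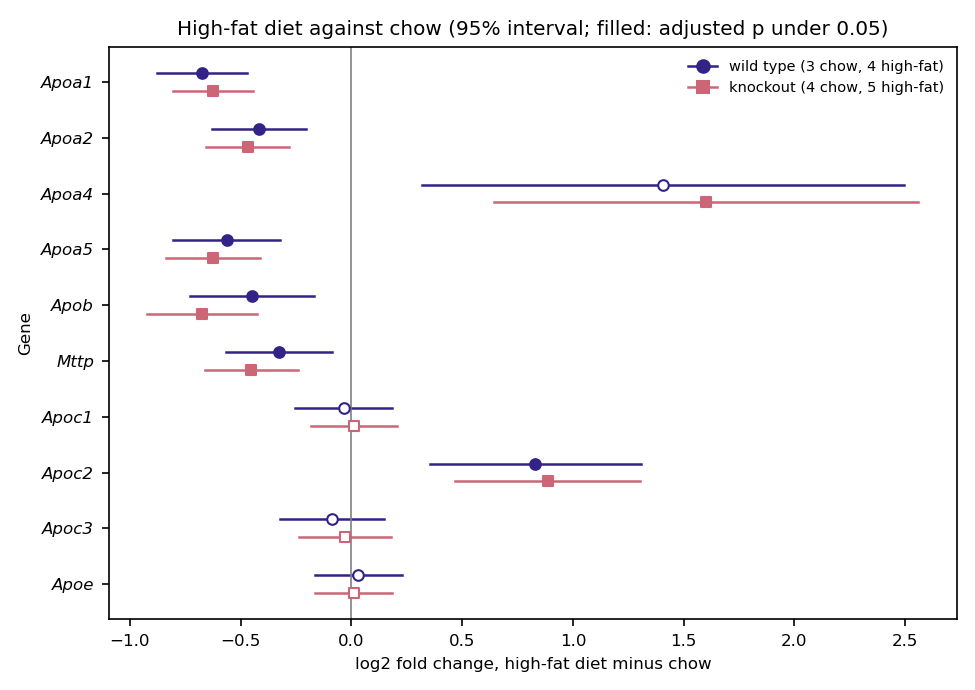
Log2 fold change of high-fat diet minus chow for each gene, with its 95% interval, in wild type (circles) and knockout (squares); filled symbols had an edgeR adjusted p under 0.05. Apoa4 and Apoc2 lie to the right of 0, and Apoa1, Apoa2, Apoa5, Apob and Mttp lie to the left in both genotypes, while the intervals of Apoc1, Apoc3 and Apoe span 0.

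Hepatocyte markers moved with diet as well. Of 13 tested (among them Alb, Ttr and Ahsg), 9 were lower on high-fat diet in wild type and 7 in knockout, with none higher, and their medians were -0.53 and -0.46. These are 69.2% and 53.8% of the markers, where 14.2% and 16.2% of all genes were lower. Their summed level was 96143 to 109701 CPM in wild type and 98641 to 107625 CPM in knockout on chow, and 71474 to 88793 and 75192 to 91020.0 CPM on high-fat diet. All these marker values are on the TMM scale. Scaled to library totals without CT010467.1, the median of all genes was 0.205 in wild type and 0.1947 in knockout. The size of the marker falls therefore depends on the scaling. In whole liver, fewer cells of a type and less RNA per cell cannot be told apart, and the part of either in the falls of the 5 genes was not tested.

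Apoa4 had the largest diet difference of the 10. In wild type its levels were 1080.3, 1328 and 932 CPM on chow and 2011, 3454, 3132 and 3215 CPM on high-fat diet. In knockout they were 835, 325, 1036 and 1153 CPM on chow and 713, 2557, 3377, 3754 and 2313 CPM on high-fat diet. All 4 high-fat wild-type libraries lay above all chow libraries, and so did 4 of the 5 high-fat knockout libraries, the exception being high-fat knockout 1. Among the chow knockout libraries, number 2 was far below the other 3.

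In knockout the log2 fold change of Apoa4 was 1.60 ± 0.44 (SE, edgeR adjusted p = 0.0139), a 3.04-fold rise with a 95% interval of 1.56 to 5.9. Without high-fat knockout 1 it was 1.86 ± 0.33 (edgeR adjusted p = 0.000978). In wild type it was 1.41 ± 0.50, and the edgeR adjusted p of 0.0513 missed the threshold. That call turned with the setting: the DESeq2 Wald test gave an adjusted p of 0.00331, the edgeR fit on the 2 groups alone 0.000662 and limma 0.0734, and the range over all alternatives was 0.000662 to 0.146. Fitted on its 2 groups alone, the rise in knockout missed the threshold (edgeR adjusted p = 0.0544). The difference of the diet effect between genotypes did not pass the test (0.20, 95% interval -1.19 to 1.58, edgeR adjusted p = 0.975). That interval reaches from 0.437 to 3 times, too wide to show that the genotypes are alike.

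Apoc2, for the lipase activator, was the other gene that was higher. In wild type it had 133, 132 and 170.0 CPM on chow and 218, 265, 278 and 269.7 CPM on high-fat diet. In knockout it had 125, 114, 147 and 148 CPM on chow and 131, 251, 295, 327 and 229 CPM on high-fat diet. The groups did not overlap in wild type, and in knockout they overlapped only through high-fat knockout 1. The log2 fold change of Apoc2 was 0.83 ± 0.22 in wild type (edgeR adjusted p = 0.0114) and 0.89 ± 0.20 in knockout (edgeR adjusted p = 0.0029). Without high-fat knockout 1 the latter was 1.06 ± 0.12 (edgeR adjusted p = 6.11e-06), and without chow wild type 2 the former just missed the threshold (0.77, edgeR adjusted p = 0.0532).

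**Figure D3:**
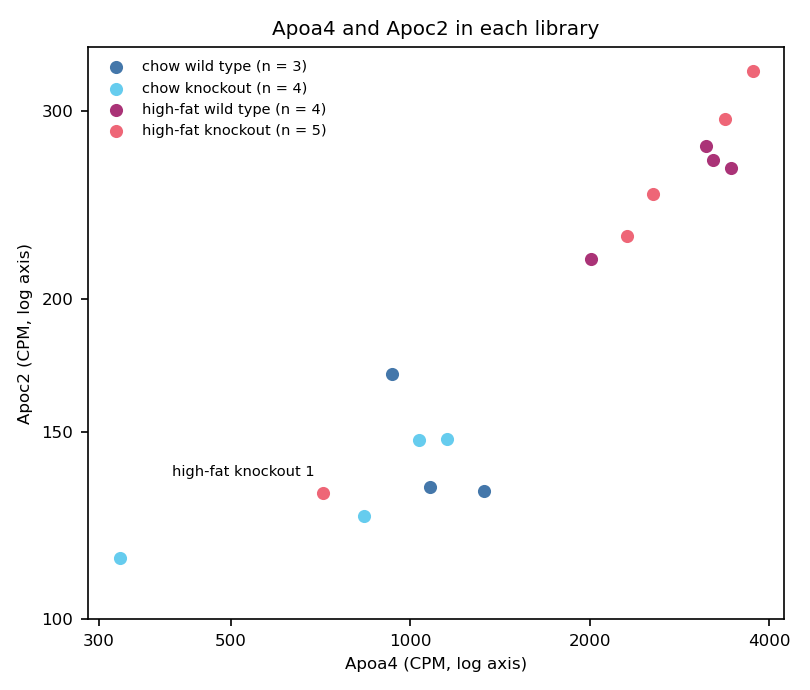
Apoa4 (x axis) against Apoc2 (y axis) in CPM in each of the 16 libraries, both axes logarithmic, coloured by diet and genotype. The chow libraries fill the lower left with high-fat knockout 1 among them, and the other 8 high-fat libraries fill the upper right, from 2011 CPM of Apoa4 and 218 CPM of Apoc2 upwards.

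After the group means were subtracted from log2 CPM, Apoa4 and Apoc2 had a Pearson r of 0.85 over the 16 libraries, and 0.64 without high-fat knockout 1. The points share their group means and scaling, and r is a description. The highest r among all pairs of the 10 was that of Apoa2 and Apoe (0.94, and 0.93 without high-fat knockout 1). The lowest was that of Apob and Apoc3 (-0.51, and -0.56 without high-fat knockout 1). Without that library the lowest was that of Apob and Apoc2 (-0.76), which was -0.17 with it.

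Among 7426 genes with a mean of at least 10 CPM, the 5 most like Apoa4 by the same measure were AC116503.1 (r = 0.99), Kctd2 (0.91), Zfp750 (0.89), Nadk (0.88) and 2010003K11Rik (0.88). AC116503.1 overlaps Apoa4 on the other strand, and whether counting used strand is not given, so its reads and those of Apoa4 cannot be told apart. Its level was 9.88 to 15.8 CPM in chow wild type and 24.7 to 40.3 CPM in high-fat wild type. The 5 genes most like Apoc2 were Ndufa7 (0.96), Acot13 (0.93), Gapdh (0.91), Rnd2 (0.91) and Rab1b (0.91). Without high-fat knockout 1, r fell to between 0.73 and 0.80 for the 4 genes other than AC116503.1 that were most like Apoa4, and to between 0.72 and 0.88 for the 5 most like Apoc2. The 5 genes most like Apoa4 were then AC116503.1 (0.98), H2-T22 (0.86), Sh2b1 (0.85), Naxe (0.84) and H2-T23 (0.83). Those most like Apoc2 were Rgl2 (0.90), Sgta (0.89), Ndufa7 (0.88), Gapdh (0.87) and Myl12b (0.87). So only AC116503.1 stayed among the 5 of Apoa4, and only Ndufa7 and Gapdh among those of Apoc2.

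Sequence upstream of the start is shown for the 2 genes that were higher and for 2 of those that fell, Apoa1 and Apob, from the RefSeq promoter table (GRCm38.p6, windows of 250 bases before to 50 after a RefSeq start), cut to what lies before the GENCODE start. Windows were found for 8 of the 10 genes. Capitals mark matches to 5 motifs sought on both strands, which are spelled out after the sequences.
Apoa4, chr9:46240594-46240695, plus strand: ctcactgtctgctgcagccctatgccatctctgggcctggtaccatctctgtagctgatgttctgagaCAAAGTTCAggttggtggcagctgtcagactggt
Apoc2, chr7:19677942-19678191, minus strand: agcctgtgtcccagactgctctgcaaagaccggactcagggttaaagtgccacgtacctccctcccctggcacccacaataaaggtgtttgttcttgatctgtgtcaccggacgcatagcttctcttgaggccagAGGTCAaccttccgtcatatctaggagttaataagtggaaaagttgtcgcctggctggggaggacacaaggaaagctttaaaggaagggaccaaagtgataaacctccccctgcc
Apoa1, chr9:46228380-46228579, plus strand: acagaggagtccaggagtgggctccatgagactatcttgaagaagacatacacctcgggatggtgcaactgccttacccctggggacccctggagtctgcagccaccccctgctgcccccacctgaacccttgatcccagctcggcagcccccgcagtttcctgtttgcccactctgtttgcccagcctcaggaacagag
Apob, chr12:7977427-7977647, plus strand: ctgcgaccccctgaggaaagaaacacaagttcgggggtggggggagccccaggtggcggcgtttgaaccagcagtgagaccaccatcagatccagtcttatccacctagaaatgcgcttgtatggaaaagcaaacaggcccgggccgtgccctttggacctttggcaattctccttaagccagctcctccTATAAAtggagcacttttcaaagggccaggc
The match of Apoa4 was to CAAAGTNCA, an element of the type bound by HNF4, and began 182 bases before its RefSeq start. This RefSeq start is downstream of the GENCODE start, so the match lies closer to the GENCODE start, where the printed sequence ends. That element was in the window of 1 of the 8 genes and in 1.41% of 32851 promoter windows. In Apoc2 the nuclear receptor half-site AGGTCA lay 115 bases before the RefSeq start. It was found for 2 of the 8 genes, Apoa2 being the other, and in 16.3% of windows. In Apob the TATA box, searched as TATAAA, lay 60 bases before the RefSeq start, which is downstream of the GENCODE start where the printed sequence ends. It was found for 4 of the 8 genes (Apoa2, Apoa5, Apob and Apoe), against 13.6% of windows. The box CCAAT was found for 1 of the 8, Apoa2, against 37.4% of windows. The sterol regulatory element TCACNCCAC was found for none, against 1.24% of windows. The match of Apoe to TATAAA on one strand overlapped its match on the other, in a window that lies within the GENCODE limits of the gene. Some genes have several windows, 3 for Apoe and 2 each for Apoa2 and Apoa5. A gene was counted if any of its windows matched, while the shares are of single windows, so the counts and shares are not like for like. A match describes letters in the window, not a bound site.

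Apoa1, for the main HDL protein, had the smallest adjusted p of the 10. Wild-type livers had 6626, 8077 and 6992 CPM on chow and 4529, 4287, 4907 and 4399 CPM on high-fat diet. Knockout livers had 6421, 5803, 7226 and 6853 CPM on chow and 3768, 4167, 4258, 4648 and 4489 CPM on high-fat diet. Every high-fat library lay below every chow library. The log2 fold change was -0.67 ± 0.10 in wild type (edgeR adjusted p = 6.95e-05), a level 0.626 times that on chow with a 95% interval of 0.544 to 0.722. In knockout it was -0.62 ± 0.09 (edgeR adjusted p = 3.12e-05).

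Apoa2 fell less. It had 3104, 2762 and 3228 CPM in wild type on chow and 2627, 2106, 2376 and 1972 CPM in wild type on high-fat diet. Levels in knockout were 3187, 2847, 3131 and 3218 CPM on chow and 1963, 2442, 2315, 2275 and 2185 CPM on high-fat diet. The ranges did not overlap between diets in either genotype. Its log2 fold change was -0.42 ± 0.10 in wild type (edgeR adjusted p = 0.00483) and -0.47 ± 0.09 in knockout (edgeR adjusted p = 0.000633).

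Apoa5 lies in the gene cluster of Apoa1 and Apoa4. It had 1693, 1645 and 2127 CPM in wild type on chow and 1299, 1121, 1237 and 1278 CPM in wild type on high-fat diet. Knockout libraries had 1858, 1895, 1657 and 1839 CPM on chow and 984, 1325, 1208, 1327 and 1026 CPM on high-fat diet. Again no high-fat library reached a chow library. The log2 fold change of Apoa5 was -0.56 ± 0.11 in wild type (edgeR adjusted p = 0.00133) and -0.63 ± 0.10 in knockout (edgeR adjusted p = 0.000143).

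Both genes at the core of VLDL assembly fell. Apob had 9425, 10925 and 7929 CPM in wild type on chow and 7158, 6737, 6576 and 7155 CPM in wild type on high-fat diet. Levels in knockout were 10402, 13512, 9841 and 10114 CPM on chow and 6043, 7189.6, 7786, 5612 and 7744 CPM on high-fat diet. The ranges did not overlap in either genotype, though chow wild type 3 at 7929 CPM lay near the highest high-fat libraries, and chow knockout 2 stood above all others. The log2 fold change of Apob was -0.45 ± 0.13 in wild type (edgeR adjusted p = 0.0173) and -0.67 ± 0.12 in knockout (edgeR adjusted p = 0.000293). Without chow wild type 2 the fall in wild type did not pass (-0.33, edgeR adjusted p = 0.118).

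Mttp, for the transfer protein, had 494, 542 and 439 CPM in wild type on chow and 382, 387, 419 and 379 CPM in wild type on high-fat diet. Knockout libraries had 573, 547, 484 and 484 CPM on chow and 291, 395, 436, 382 and 403 CPM on high-fat diet, with high-fat knockout 1 the lowest. High-fat and chow ranges did not overlap in either genotype. The log2 fold change of Mttp was -0.45 ± 0.10 in knockout (edgeR adjusted p = 0.00204) and -0.35 ± 0.08 without high-fat knockout 1 (edgeR adjusted p = 0.00287). In wild type it was -0.33 ± 0.11 (edgeR adjusted p = 0.0365), the weakest of the calls: leaving out chow wild type 1 or 2, or high-fat wild type 1, 2 or 4, lost it, with edgeR adjusted p of 0.0674 to 0.169. It was also lost with no filter on low counts (edgeR adjusted p = 0.0572) and with at least 10 CPM required in 3 libraries (-0.25, edgeR adjusted p = 0.0877).

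Apoe, Apoc1 and Apoc3 were level between diets within the spread. Apoe had 10238, 9319 and 10513 CPM in wild type on chow and 11342, 9551, 10687 and 9369 CPM in wild type on high-fat diet. In knockout it had 10402, 9547, 10017 and 10906 CPM on chow and 9311, 11414, 10912, 9888 and 9926 CPM on high-fat diet. These ranges overlapped throughout. The diet log2 fold change of Apoe was 0.03 in wild type (95% interval -0.17 to 0.23, edgeR adjusted p = 0.838) and 0.01 in knockout (-0.16 to 0.18, edgeR adjusted p = 0.938).

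Apoc1 ran from 959.5 to 1333 CPM over all 16 libraries, with both ends among the high-fat libraries. Its diet log2 fold change was -0.04 in wild type (95% interval -0.26 to 0.18) and 0.01 in knockout (-0.18 to 0.21). Apoc3, for the lipase inhibitor, ran from 639 to 930.3 CPM. Its diet log2 fold change was -0.09 in wild type (95% interval -0.32 to 0.15) and -0.03 in knockout (-0.24 to 0.18). So the activator Apoc2 was higher on high-fat diet while its counterpart Apoc3 did not pass the test; the difference between the 2 genes was not tested.

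The counts of the other genes were also set against those of Apoe within each library, which no scaling between libraries can alter. Per 100 counts of Apoe, Apoa2 had 29.5 to 31.3 counts in all 7 chow libraries and 21.1 to 23.2 in all 9 high-fat libraries. The SD of this ratio was 0.54 to 0.865 counts in each group, with high-fat knockout 1 included. Apoa1 had 60.8 to 86.7 counts per 100 of Apoe on chow and 36.5 to 47.0 on high-fat diet. Apoa5 had 16.5 to 20.2 and 10.3 to 13.6. Neither pair of ranges overlapped. For Mttp the ratio was 4.17 to 5.82 on chow and 3.13 to 4.06 on high-fat diet, also without overlap. For Apob it was 75.4 to 142 and 56.8 to 78.0, which overlapped slightly. Apoa4 had 3.41 to 14.3 counts per 100 of Apoe on chow, and 17.7 to 38 on high-fat diet except for 7.66 in high-fat knockout 1. Apoc2 had 1.2 to 1.62 and 1.92 to 3.31, except for 1.41 in high-fat knockout 1. A ratio shows unequal change and not which of the 2 genes changed.

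Scaling between libraries changed several calls. Scaled to library totals without CT010467.1 and with no TMM factors, a setting added after the data were seen, the median of all genes moved to 0.20 in wild type and 0.19 in knockout. The share of calls that were higher on high-fat diet went from 51.8% to 84.3% in wild type and from 51.7% to 81.4% in knockout. On that scale Apoe was higher on high-fat diet (0.25 in wild type, edgeR adjusted p = 0.0273, and 0.21 in knockout, 0.0309), as was Apoc1 in knockout (0.21, 0.0481). Apoa2 (-0.19, 0.126), Apob (-0.22, 0.206) and Mttp (-0.10, 0.528) no longer passed in wild type, nor did Mttp in knockout (-0.25, 0.0536). Apoa1 and Apoa5 fell and Apoc2 rose under all 5 scalings, in both genotypes.

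The gene clusters did not move as units. On chromosome 9, 4 of the genes lie within 43.3 kb: Apoa1 (chr9:46228580-46230466, plus strand), Apoc3 (chr9:46232933-46235636, minus strand), Apoa4 (chr9:46240696-46243459, plus strand) and Apoa5 (chr9:46268633-46271919, plus strand). From left to right their diet log2 fold changes were -0.67, -0.09, 1.41 and -0.56 in wild type and -0.62, -0.03, 1.60 and -0.63 in knockout. On chromosome 7, Apoc2 (chr7:19671579-19677941), Apoc4 (chr7:19678083-19681479), Apoc1 (chr7:19689481-19692660) and Apoe (chr7:19696109-19699188) lie on the minus strand within 27.6 kb. Their values were 0.83, -0.45, -0.04 and 0.03 in wild type and 0.89, -0.52, 0.01 and 0.01 in knockout. Apoc4, a minor apolipoprotein gene whose limits lie next to those of Apoc2, fell in both genotypes (edgeR adjusted p = 0.00235 and 0.000213), opposite to Apoc2. The 3 other genes lie apart: Apoa2 (chr1:171225054-171226379, plus strand), Apob (chr12:7977648-8016835, plus strand) and Mttp (chr3:138089854-138144968, minus strand). Coordinates are those of mm10.

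**Figure D4:**
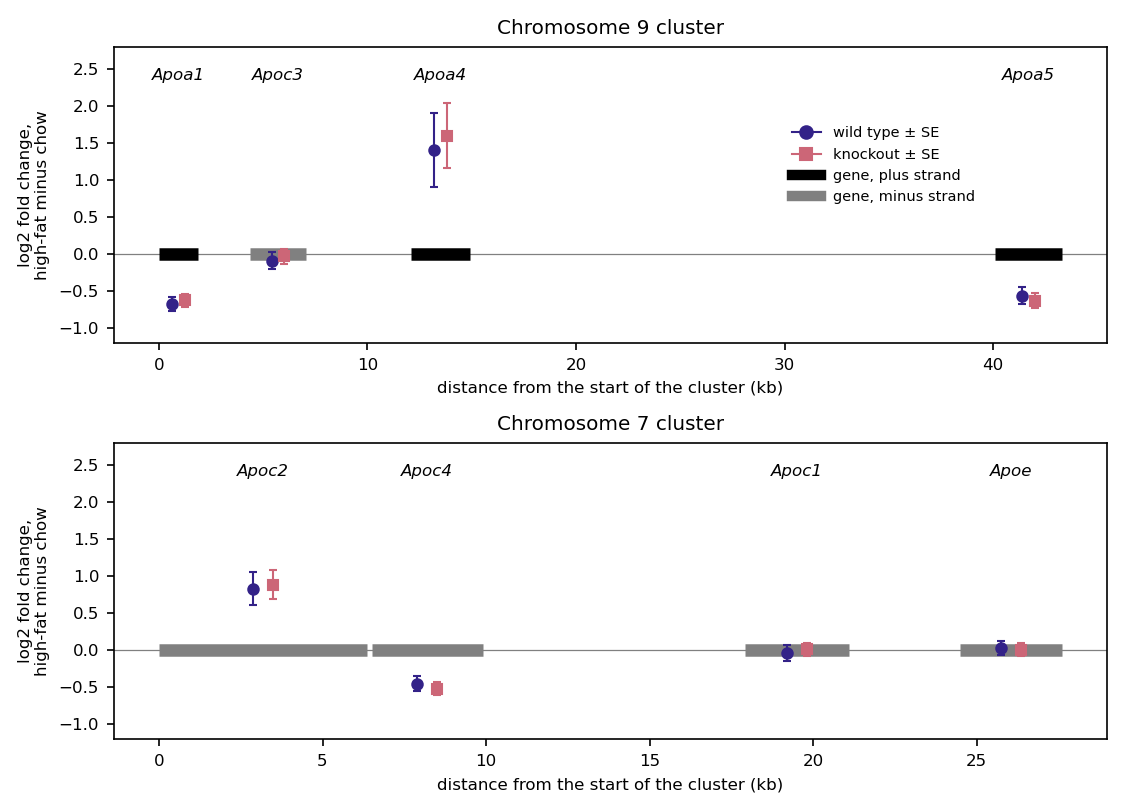
Diet log2 fold change ± SE (y axis) of the genes of the chromosome 9 and chromosome 7 clusters at their distance in kb from the first gene's start (x axis), in wild type (circles) and knockout (squares), with gene bodies as bars coloured by strand. Neighbours differ in direction: Apoa4 lies above 0 between Apoc3 near 0 and Apoa5 at -0.56 in wild type, and Apoc2 at 0.83 lies beside Apoc4 at -0.45.

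Some counts share sequence with other genes. Apoa4 is overlapped on the other strand by AC116503.1 and Gm10680, Apoa5 by Gm47544, and Mttp by Gm43691 and Trmt10a. Apoc2 is overlapped on its own strand by Gm44805, a gene model that runs on into Apoc4. Gm44805 had 6.82 to 13.6 CPM over all libraries, Trmt10a had group means of 2.34 to 3.92 CPM and Gm43691 at most 0.641 CPM, all far below the genes they overlap.

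Loss of miR-33 in liver was the other comparison. On high-fat diet 0 of the 10 genes passed, beside 0.00594% of all genes, and 0 had an unadjusted p under 0.05, beside 3.81%. On chow 0 of 10 passed, beside 0.00594%, and 0 had an unadjusted p under 0.05, beside 5.95%. For the mean of the knockout effects over both diets 0 of 10 passed, beside 0.0178%, and for their difference 0 of 10, beside 0%, with 0 of 10 at an unadjusted p under 0.05 in each, beside 3.48% and 6.6%. The groups overlapped for all 10 genes, where 1.24% of all genes on high-fat diet and 5.62% on chow did not overlap. The DESeq2 Wald test and limma also called 0 of the 10 in each of these.

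Median knockout log2 fold changes of the 10 genes were -0.04 on high-fat diet and -0.02 on chow, beside 0.00 for all genes on both diets. On high-fat diet the changes ran from -0.22 (Apoa4) to 0.02 (Apoc1). Without high-fat knockout 1, Apoa2 (0.02), Apoa4 (0.02 ± 0.32, SE), Apob (0.04), Apoc2 (0.10) and Mttp (0.05) changed sign, and again 0 of 10 passed. With all libraries, intervals were narrow for most genes: the 95% interval was -0.17 to 0.18 for Apoe, -0.27 to 0.09 for Apoa1, -0.26 to 0.24 for Apob and -0.25 to 0.17 for Mttp. For Apoc2 it was -0.47 to 0.34, and for Apoa4 -1.13 to 0.70, so that its bounds for Apoa4 were 0.457 and 1.62 times the wild-type level.

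On chow the knockout log2 fold changes ran from -0.41 (Apoa4, 95% interval -1.45 to 0.63) to 0.22 (Apob, -0.07 to 0.50). Apob had the smallest unadjusted p of the 10 on chow, 0.124 (edgeR adjusted p = 0.9), with chow knockout 2 its highest library. For Mttp the change was 0.09 (95% interval -0.15 to 0.33), for Apoa1 -0.14 (-0.34 to 0.07) and for Apoe 0.03 (-0.17 to 0.22). Averaged over both diets, Apoa1 stood at -0.11 (95% interval -0.25 to 0.03), Apob at 0.11 (-0.08 to 0.29) and Apoa4 at -0.31 (-1.01 to 0.38). The differences of the knockout effect between diets were -0.23 for Apob (95% interval -0.60 to 0.15) and -0.12 for Mttp (-0.44 to 0.20). A p that misses the threshold does not show that the genotypes are alike, and the intervals give the range of sizes.

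**Figure D5:**
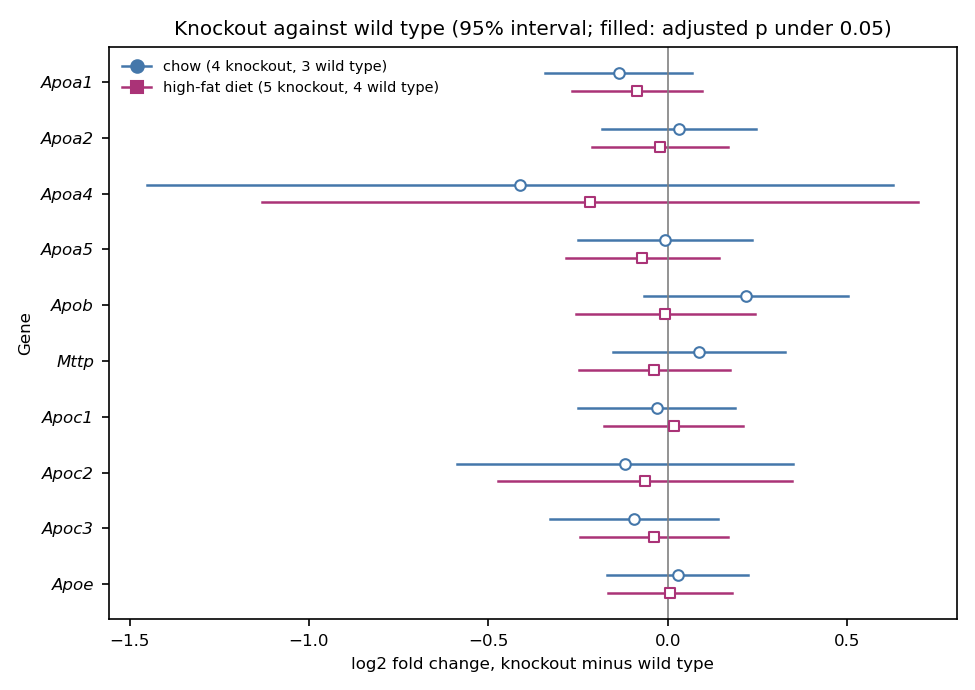
Log2 fold change of knockout minus wild type for each gene with its 95% interval, on chow (circles) and high-fat diet (squares); all symbols are open because no edgeR adjusted p was under 0.05. Every interval spans 0, and those of Apoa4 are the widest, from -1.45 to 0.63 on chow and from -1.13 to 0.70 on high-fat diet.

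High-fat knockout 1 was the lowest library of its group for 7 of the 10 genes and the highest for none. It shared the chow range of Apoa4 and Apoc2, and it was also close to or within the chow knockout range for the lipid droplet gene Cidec (22.7 CPM, against 50.5 to 65.2 in the other high-fat knockout libraries) and for Pparg (9.03 CPM, against 14.9 to 17.6). For other diet-responsive genes it was with the high-fat libraries: Srebf1 had 159 CPM there against 19.3 to 44.9 in chow knockout, and Lpl had 57.0 CPM against 13.1 to 16.9. Without it the log2 fold changes of diet in knockout were -0.56 for Apoa1, -0.41 for Apoa2, -0.55 for Apoa5 and -0.61 for Apob, and all 4 passed.

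Beyond the 10 genes, 4 lists of lipoprotein genes were described by counts. Of 12 other genes named for apolipoproteins, 3 were higher and 6 lower on high-fat diet in wild type (median -0.35), and 2 higher and 6 lower in knockout (median -0.04). These are 75% and 66.7% of the list, where 29.4% and 33.6% of all genes passed. The 3 that were higher in wild type were Apobec1, Apobr and Apool. Of these, Apobec1 encodes an enzyme and Apobr a receptor, not apolipoproteins, so the counts and medians are not of apolipoproteins alone. Apom, for a minor HDL protein that carries sphingosine 1-phosphate, fell from 129.9 ± 25.7 CPM (SD, n = 3) to 59.0 ± 5.11 CPM (n = 4) in wild type (-1.14 ± 0.11, edgeR adjusted p = 1.46e-06), and its log2 fold change in knockout was -1.09. Apol7a (-1.15), Apon (-0.59) and Apof (-0.54) also fell in wild type. Apobec1, for the enzyme that edits Apob messenger RNA to the short form, rose from 5.36 ± 1.25 to 12.5 ± 3.15 CPM (1.22 ± 0.22, edgeR adjusted p = 0.000573). The rise of Apobec1 in knockout was 0.59 ± 0.19 (edgeR adjusted p = 0.0213). The receptor gene Apobr rose by 1.18 on the log2 scale in wild type (edgeR adjusted p = 0.00075) and had 0.40 in knockout, which did not pass (0.103).

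Of 33 genes listed for VLDL assembly and secretion, 5 were higher and 7 lower in wild type (median -0.13), and 8 higher and 7 lower in knockout (median -0.03). The shares, 36.4% and 45.5%, compare with 29.4% and 33.6% of all genes, and that in wild type is near the share of all genes. The largest rise in the list was that of the lipid droplet gene Cidec, from 20.3 ± 3.34 to 61.2 ± 15.3 CPM in wild type (1.59 ± 0.35, edgeR adjusted p = 0.00406). Lpcat3, for an enzyme that remodels phospholipids of the particle, rose by 0.56 in wild type and 0.56 in knockout on the log2 scale. Sar1b, for a GTPase of the vesicles that leave the endoplasmic reticulum, rose by 0.35 and 0.31. Among those that fell were the sorting receptor gene Sort1 (-1.18 in wild type and -1.06 in knockout) and Mia3, for a cargo receptor of large vesicles (-0.62 and -0.58). P4hb, for the partner subunit of the transfer protein, had -0.08 in wild type and 0.24 in knockout and did not pass (edgeR adjusted p = 0.591 and 0.0605). Tm6sf2, for a protein of VLDL lipidation, had -0.41 in wild type (edgeR adjusted p = 0.0517) and fell in knockout (-0.46, 0.0121).

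Of 22 genes of lipoprotein clearance and remodelling, 5 were higher and 7 lower in wild type (median 0.04), and 7 higher and 8 lower in knockout (median -0.06), or 54.5% and 68.2% of the list, beside 29.4% and 33.6% of all genes. Lpl, for lipoprotein lipase, which adult hepatocytes make little of, rose from 8.40 ± 1.87 to 64.0 ± 19.5 CPM in wild type (2.92 ± 0.24, edgeR adjusted p = 7.74e-07) and by 1.77 in knockout. The receptor gene Vldlr rose by 1.80 in wild type and 0.82 in knockout. Lcat, for the enzyme that Apoa1 activates on HDL, fell from 462 ± 35.5 to 233 ± 28.9 CPM in wild type (-0.99 ± 0.10, edgeR adjusted p = 1.86e-06), with -0.94 in knockout. The HDL enzyme gene Pon1 (-0.96), the lipase inhibitor gene Angptl4 (-1.04) and the remnant receptor gene Sdc1 (-0.73) fell in wild type as well, and in knockout (-0.95, -1.06 and -0.59).

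Of 28 genes for transcription factors and cofactors known to act on apolipoprotein genes, 3 were higher and 12 lower in each genotype (medians -0.28 and -0.22). That is 53.6% of the list, beside 29.4% of all genes in wild type and 33.6% in knockout, where 14.2% and 16.2% of all genes were lower. Hnf4a, for the nuclear receptor that activates many apolipoprotein genes, fell from 536 ± 37 to 291 ± 30.6 CPM in wild type (-0.88 ± 0.11, edgeR adjusted p = 1.19e-05) and from 578 ± 71.2 to 293 ± 23.9 CPM in knockout (-0.98 ± 0.09, edgeR adjusted p = 8.06e-07). Creb3l3, for a factor known to act on Apoa4, Apoc2 and Apoa5, fell by 0.73 in wild type and 0.58 in knockout on the log2 scale. Its protein is activated by cleavage, which RNA does not show. Srebf1, for the lipogenic factor, rose by 1.92 and 2.43 and Pparg by 1.29 and 0.95. Nr1d1, a clock gene whose level follows the hour of the day, fell (-1.49 and -1.52), and the hour of collection is not given in the labels.

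No gene of the 4 lists passed in any knockout comparison. On library totals without CT010467.1, the counts in wild type became 3 higher and 5 lower for the other genes named for apolipoproteins. They were 10 and 4 for VLDL assembly, 11 and 6 for clearance and 4 and 4 for transcription factors. With both chow wild type 3 and high-fat knockout 1 left out they were 2 and 6, 3 and 8, 5 and 6, and 3 and 8.

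Markers of other cells in whole liver were higher on high-fat diet. In wild type, 8 of 12 Kupffer cell and macrophage markers, 7 of 8 lipid-associated macrophage markers, 8 of 10 stellate cell markers, 3 of 8 sinusoidal endothelial markers, 2 of 5 cholangiocyte markers, 1 of 2 adipocyte markers, 3 of 3 neutrophil markers and 4 of 5 erythroid markers passed as higher, none as lower, and 0 of 8 T and B cell markers passed. In knockout the counts higher were 4, 7, 7, 0, 2, 1, 1 and 0, with 1 macrophage and 3 endothelial markers lower and 0 of 8 T and B cell markers. Over all genes, 15.2% were higher in wild type and 17.4% in knockout. Macrophages are known to make Apoe, and Lpl is itself among the lipid-associated macrophage markers. Spp1, at 11.8 to 208 CPM over all libraries, is in both the lipid-associated macrophage list and the cholangiocyte list, so these lists are not separate. The summed level of the lipid-associated macrophage markers was 43.4 to 63.4 CPM over the chow libraries of wild type and 179 to 365 CPM on high-fat diet, against 9319 to 11342 CPM of Apoe in wild type. Their part in any result on the 10 genes was not tested. High-fat knockout 1 had the highest sum of T and B cell markers, 51.5 CPM, against 4.42 to 15.9 CPM in all other libraries. Of that sum 45.2 CPM was Igkc, an immunoglobulin gene, while each other marker of the list reached at most 1.87 CPM in any library.

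Intestine also expresses Apoa4 and Apob. The enterocyte marker Vil1 reached at most 0.452 CPM and Mep1b at most 0.168 CPM in any library, while Fabp2 had 77.4 to 159 CPM and Slc5a1 0.688 to 3.65 CPM. Neither of the 2 enterocyte markers tested passed between diets in either genotype. Adipoq, a defining adipocyte gene, reached at most 0.212 CPM. Hepatocyte identity was plain in every library, with 43555 to 71723 CPM of Alb and 3605 to 5154 CPM of Ttr.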

How the data were processed

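The authors deposited estimated counts, a column for each of the 16 libraries. FPKM stands in the table's name, but column totals differ as unscaled counts do. Per the labels' protocols, trimmed reads were mapped by TopHat2 and quantification used Cuffdiff, on mm10 per the submitters' processing notes. Tool versions and the use of strand were not given in the sources used here, and a small RNA library kit is named for RNA depleted of ribosomal RNA, which was not reconciled.

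Estimated counts were rounded. filterByExpr, TMM and a robust quasi-likelihood fit of edgeR 4.0.16 (R 4.3.3) ran over all 16 libraries with 4 group means (12 residual degrees of freedom). P-values, two-sided, were adjusted by Benjamini and Hochberg's method over 16830 genes, with a threshold of 0.05. Intervals are 95%. DESeq2 1.42.0 and limma 3.58.1 with voom, other scalings and filters, and leaving out libraries were alternatives. The fit was tested on simulated data. The 10 genes and all lists were chosen with earlier results of these data known. From each list, the text could name the 4 largest rises and 4 largest falls that passed in wild type, and 8 genes listed by name whatever their values. Some of these are not reported here. Among all genes, it could name the 5 most like each of the 2 members with the largest diet change. Overlapping genes were added by position, and Cidec, Pparg, Srebf1 and Lpl were given for 1 library after its values were seen. Groups came from the labels, and replicate numbers follow accession order and pair nothing.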

Additional observations from a re-analysis of the deposited data

Results flagged for a closer look

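Dixon's test on each gene in each group of 4 or 5 libraries, 30 groups in all, marked 2 libraries, where chance marks about 1 in 20 groups. Apob had 13511.6 CPM in chow knockout 2, the highest of its group, where the other 3 libraries had 9841 to 10402 CPM. Apoc3 had 691.9 CPM in high-fat wild type 2, the lowest of its group, where the other 3 had 843 to 864 CPM.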

How the results depend on the processing

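No paired analysis was possible because replicate numbers follow accession order and the labels tie no libraries across groups. The count of the 10 genes that passed between diets ran from 5 to 7 in wild type and 6 to 8 in knockout over the scalings, filters and tools tried. Leaving out 1 library in turn, it ran from 3 to 6 in wild type, the lowest without chow wild type 2. It was 0 in each knockout comparison under every alternative. No call that passed changed its sign. Signs changed for values near 0 that did not pass, and the cause was not tested. With both chow wild type 3 and high-fat knockout 1 left out, knockout log2 fold changes on high-fat diet were 0.024 for Apoa2, 0.024 for Apoa4, 0.038 for Apob, 0.10 for Apoc2 and 0.048 for Mttp. On chow they were 0.11 for Apoa5, 0.028 for Apoc1 and 0.0062 for Apoc2. The difference for Mttp was 0.042, and diet effects were 0.043 for Apoc1 in wild type and 0.0040 for Apoc3 in knockout. With at least 10 CPM in 3 libraries required, the knockout effect of Apoa5 on chow was 0.0092 and that of Apoe on high-fat diet -0.0093, and the diet effects of Apoc1 in wild type and Apoc3 in knockout were 0.036 and 0.011. On library totals without CT010467.1, diet effects were 0.19 for Apoc1 and 0.14 for Apoc3 in wild type and 0.17 for Apoc3 in knockout, and knockout effects on high-fat diet were -0.0025 for Apoc1 and -0.014 for Apoe. With upper quartile scaling the last was -0.0046.

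Leaving out 1 library in turn, knockout effects on chow ran from -0.033 to 0.078 for Apoa2, -0.076 to 0.12 for Apoa5, -0.088 to 0.032 for Apoc1, -0.18 to 0.010 for Apoc2 and -0.022 to 0.063 for Apoe. On high-fat diet they ran from -0.084 to 0.055 for Apoa2, -0.40 to 0.023 for Apoa4, -0.055 to 0.058 for Apob, -0.064 to 0.090 for Apoc1, -0.19 to 0.10 for Apoc2, -0.11 to 0.030 for Apoc3, -0.033 to 0.060 for Apoe and -0.090 to 0.047 for Mttp. The difference for Apoa4 ran from -0.073 to 0.44. Diet effects in knockout ran from -0.038 to 0.050 for Apoc1, -0.090 to 0.039 for Apoc3 and -0.030 to 0.064 for Apoe, and in wild type from -0.11 to 0.046 for Apoc1 and -0.022 to 0.072 for Apoe. Every gene had at least 114 CPM in each library, so counting depth limits these values less than the spread between 3 to 5 libraries.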
